A study of Ovis aries with 2 samples.

Results

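The CpG-dense windows described here are the 1-kb windows with 40 or more CpG sites in the interior of the sheep pseudoautosomal region (PAR), from position 740001 to 6918000 of the Y-chromosome of ARS-UI_Ramb_v3.0. There were 289 of them among the 6174 windows of this stretch that held a CpG site, or 4.68% of those windows, and their 16351 sites made up 13.1% of the 125219 CpG sites of the PAR interior. Windows with 10 to 39 sites, of which there were 5191, served as the comparison, and 694 windows held fewer than 10 sites. Along the whole Y-chromosome, 888 of 25841 windows with a CpG site reached 40 sites. The rule used the number of CpG sites and not methylation, although it was set with earlier results of these data known.

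In mammals most CpG sites of somatic tissue carry a methyl group, and CpG islands are the main exception. Such islands are short stretches rich in CpG sites that often span the starts of broadly used genes and stay free of methylation, whereas CpG-rich sequence inside genes or in repeats is often methylated. The PAR is the part of the Y-chromosome that still pairs and recombines with the X-chromosome in male meiosis, so most of its genes have a copy on both sex chromosomes.

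Long reads of 2 platforms, PacBio HiFi and Oxford Nanopore (ONT), gave 1 methylation profile each, both of lung tissue of 1 Churro x Friesian F1 male fetus at 100 days of gestation. Both libraries therefore describe the same untreated animal and tissue, there was no replicate animal, and no test between windows was made. Agreement between the platforms is the only repeat measurement, and an SD given below is the spread between CpG sites or windows, not between animals. Lung is a mixture of cell types, so an intermediate percentage cannot be told apart from a mixture of cells or of X and Y copies with different states.

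All 372890 CpG sites of the Y-chromosome had 5 or more calls on each platform, with 17648083 calls on PacBio and 45147797 on ONT in all. The median site of the PAR interior had 62 PacBio and 169 ONT calls, 1.59 and 1.90 times the medians of 39 and 89 in the male-specific region. Reads of the X copy of the PAR may be included in these values, since whether X and Y reads were separated was not given in the sources used here. In dense windows the median depth was 53 PacBio and 174 ONT calls per site.

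A window was called unmethylated when its mean over sites was under 20% on both platforms, methylated when it was 50% or more on both, and intermediate otherwise. Most dense windows were methylated, but a larger share of them was unmethylated than of windows with fewer sites. Of the 289 dense windows, 225 were methylated (77.9%, 95% Wilson interval 72.7 to 82.3, counting error only), 45 were unmethylated (15.6%, interval 11.8 to 20.2) and 19 were intermediate (6.57%, interval 4.25 to 10.04). The unmethylated share was 6.30% when 30 sites made a window dense and 29.4% when 50 did. Across all 5480 windows with 10 or more sites, 1.15% were unmethylated and 92.6% were methylated. Among the 5191 windows with 10 to 39 sites, 18 were unmethylated (0.347%, interval 0.219 to 0.547) and 4849 were methylated (93.4%, interval 92.7 to 94.1). The share of 0.347% depended on the settings: it was 0.116% with a limit of 10% for unmethylated, 0.886% with a limit of 30%, 0.192% with windows shifted by 500 bp, 0.195% with 30 sites as the limit for a dense window and 0.751% with the median over sites. The intervals take windows as independent, which adjoining windows of 1 animal are not, and they are no test of the difference.

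The 45 unmethylated windows had a median of 4.33% on PacBio, with a range of 2.87 to 18.2%. On ONT their median was 2.04%, with a range of 1.27 to 10.04%. For the 225 methylated windows the PacBio median was 87.6% (range 59.1 to 95.8) and the ONT median 78.3% (range 51.5 to 88.3). These windows were more highly methylated than the methylated windows with 10 to 39 sites, whose medians were 80.3% and 69.5%. The intermediate windows had medians of 43.98% on PacBio (range 21.2 to 58.6) and 37.0% on ONT (range 15.3 to 46.4). The limits of 20% and 50% set the kinds apart, and on PacBio the highest intermediate window (58.6%) nearly met the lowest methylated one (59.1%). Of the dense windows 42 were on PacBio under 10%, 105 between 80 and 90% and 81 above that, and on ONT 44 were under 10%, 84 between 70 and 80% and 98 between 80 and 90%.

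**Figure D1:**
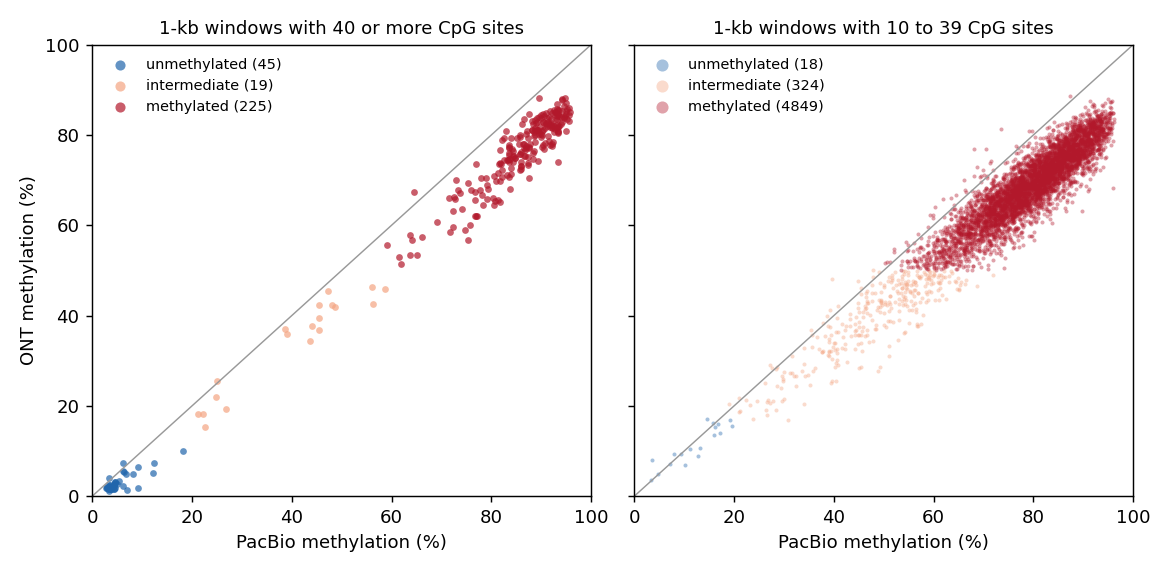
Mean methylation of each 1-kb window on PacBio (x axis, %) against ONT (y axis, %), with 1 point per window, dense windows on the left, windows with 10 to 39 CpG sites on the right, and the line of equal values in grey. The 45 unmethylated dense windows sit at the lower left corner and the 225 methylated ones at the upper right, mostly under the line, with 19 intermediate windows between them.

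Across the 289 dense windows the platforms ranked methylation alike (Pearson's r = 0.994 and Spearman's rho = 0.943 over windows of the same animal), and within the 225 methylated windows r was 0.915. PacBio gave the higher value in 285 of 289 dense windows, by a median of 8.46 percentage points (mean 8.11 ± 4.10, SD between windows). The gap was 1.79 points in unmethylated windows, 6.04 in intermediate and 9.39 in methylated windows, and 10.3 in windows with 10 to 39 sites. The share of ONT calls between the thresholds, which count as neither methylated nor unmethylated, also varied with the kind. It had a median of 9.66% in unmethylated, 14.03% in intermediate and 16.5% in methylated dense windows, and its part in the gap was not tested. Single sites within a window varied little where the window was unmethylated, with a median SD between sites of 3.43 points on PacBio and 2.09 on ONT. In methylated windows these SDs were 12.4 and 11.6 points, and in intermediate windows 28.4 and 22.8. In the median unmethylated window 98.7% of sites were under 20% on both platforms, and in the median methylated window 95.2% of sites were at 50% or more on both.

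The share of unmethylated windows was higher in each class with more CpG sites. It was 0.147% of 2730 windows with 10 to 19 sites, 0.264% of 1893 with 20 to 29 and 1.58% of 568 with 30 to 39. Among dense windows it was 4.91% of 163 windows with 40 to 49 sites, 8.51% of 47 with 50 to 59 and 20% of 40 with 60 to 79. It reached 59.1% of 22 windows with 80 to 99 sites (Wilson interval 38.7 to 76.7) and 70.6% of 17 windows with 100 to 204 sites (interval 46.9 to 86.7). The methylated windows, in turn, had higher levels in classes with more sites. Their medians went from 77.8% on PacBio and 67.2% on ONT at 10 to 19 sites to 86.7% and 77.0% at 40 to 49 sites, and to 94.4% and 87.4% in the 4 methylated windows with 100 or more sites. PacBio depth went from 66 to 42 calls per site over the same classes while ONT depth went from 171 to 195.5, and the part of depth in these shares was not tested. At the limit of the choice, 31 windows with exactly 40 sites had medians of 85.6% on PacBio and 73.5% on ONT with 2 unmethylated, and 24 windows with 39 sites had medians of 82.2% and 68.0% with 0 unmethylated. The neighbouring counts showed no step at this limit, with 4 of 44 windows unmethylated at 38 sites and 0 of 21 at 43 sites.

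**Figure D2:**
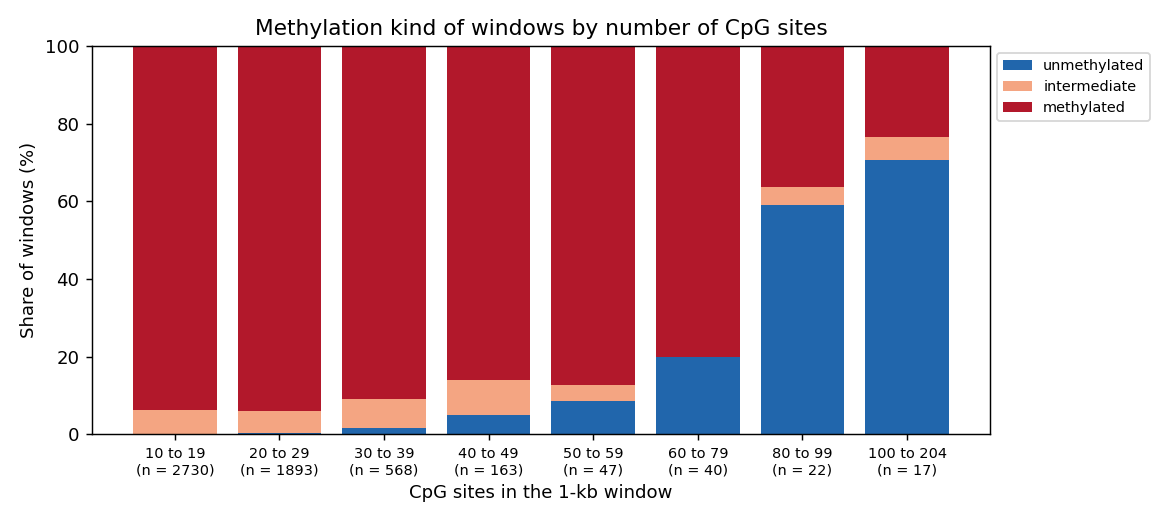
Share of 1-kb windows (y axis, %) that were unmethylated, intermediate or methylated, stacked for each class of CpG sites per window (x axis, with the number of windows n). Unmethylated windows go from 0.147% of windows with 10 to 19 sites to 70.6% of those with 100 to 204 sites.

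Unmethylated dense windows held a median of 83 CpG sites (range 40 to 204) with a median spacing of 7 bp between neighbouring sites. Methylated dense windows held a median of 46 sites (range 40 to 149) at a spacing of 13 bp, and intermediate windows 43 sites at 16 bp. Both main kinds lay mostly in genes, but only unmethylated windows mostly had a gene start nearby. An annotated gene overlapped 37 of 45 unmethylated windows (82.2%) and 176 of 225 methylated windows (78.2%), against 44.4% of all windows with 10 or more sites. A gene start lay in, or within 1 kb of, 36 of 45 unmethylated dense windows (80%) and 7 of 225 methylated ones (3.11%), against 2.61% of all windows with 10 or more sites. Among windows with 10 to 39 sites, 96 (1.85%) had a start this close.

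The extremes of CpG number held every kind. The window with most sites, 1264001-1265000 with 204, spans the shared annotated start of DHRSX, a dehydrogenase/reductase gene, and ZBED1, a zinc-finger gene, and was at 4.37% on PacBio and 2.70% on ONT. The next, 761001-762000 with 154 sites at the start of SLC25A6, which encodes an ADP/ATP carrier of the mitochondrial inner membrane, was at 3.42% and 1.27%. Both were therefore nearly free of methylation on each platform. The window at 878001-879000 in the body of AKAP17A, an A-kinase anchoring protein linked to splicing, held 149 sites at 94.2% and 87.7%. The window 1265001-1266000, directly upstream of DHRSX and ZBED1, held 143 sites at 56.2% and 42.6% and was intermediate. The fifth, 1308001-1309000 with 141 sites beside the start of the lncRNA LOC114111205, was at 3.75% and 1.503%.

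Dense windows were concentrated toward the outer end of the PAR interior. From 740001 to 2000000 there were 214, or 74.0% of all, at 17.0 per 100 kb, and in the remaining 4918 kb there were 75, at 1.53 per 100 kb. Only 3 lay between 2000001 and 3000000, a stretch that holds the OBP genes and the first BOS2D genes. The outer part also held more CpG sites in all, 29.4 against 17.9 per kb, but its dense windows were not unmethylated more often. In the outer 1260 kb 28 of 214 dense windows (13.1%) were unmethylated, against 17 of 75 (22.7%) farther in. Methylated dense windows of both parts had similar PacBio medians, 88.1% and 87.4%, with ONT medians of 79.5% and 76.7%. In each part they lay above the methylated windows with 10 to 39 sites, which had medians of 83.3% on PacBio and 72.9% on ONT in the outer part and of 79.5% and 68.9% farther in. The innermost stretch, from 6000001 to 6918000, went the other way, with 82.5% and 69.0% in its 8 methylated dense windows against 83.6% and 71.5% in those with 10 to 39 sites.

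Adjoining dense windows of the same kind were joined into runs. The 45 unmethylated windows formed 22 runs, of which 9 were single windows, 6 had 2 windows and 7 had 3 or more, up to 5 kb. The 225 methylated windows formed 168 runs, of which 139 (82.7%) were single windows and 13 had 3 or more, up to 9 kb. An unmethylated run held a median of 176.5 CpG sites and a methylated run 46. A gene start lay within 1 kb of 18 of the 22 unmethylated runs (81.8%, Wilson interval 61.5 to 92.7), in 17 of them that of a protein-coding gene. The same was true of 7 of the 168 methylated runs (4.17%, interval 2.03 to 8.35), in 3 of them (1.79%) for a protein-coding gene, and a start lay inside the run in 1.19%. A start lay within 2 kb of 7.74% of methylated and 81.8% of unmethylated runs.

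The longest unmethylated run was the 5 kb at 6729001-6734000 around the start of TBL1X, which encodes a subunit of nuclear receptor corepressor complexes and is transcribed from 6731620 on the plus strand. Its 369 sites had a mean of 6.96% ± 10.9 (SD between sites) on PacBio and 2.77% ± 5.80 on ONT. From left to right the 5 windows were at 12.2, 4.35, 6.95, 4.56 and 9.14% on PacBio and at 5.05, 2.54, 1.36, 1.81 and 6.53% on ONT, so both outer windows were the highest. PacBio depth was 34 calls per site here, under the median of 53 for dense windows.

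The second, 4 kb at 3974001-3978000, covered the start of NLGN4X, a neuroligin of the synapse that is transcribed from 3977696 on the minus strand. Its 273 sites were at 4.79% ± 6.44 on PacBio and 1.89% ± 1.45 on ONT. The windows on either side, with 25 and 13 sites, were also unmethylated, at 7.98% and 3.35% on PacBio and at 9.41% and 3.63% on ONT, so the unmethylated sequence went on beyond the dense windows at both ends.

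Another 5 runs had 3 windows each, and the 3 of these with most CpG sites are given next. The run at 1306001-1309000 held the start of LOC114111205 at 1307995 and was at 3.66% ± 2.22 on PacBio and 1.99% ± 2.21 on ONT over 313 sites. The run at 1791001-1794000 held the start of PRKX, a serine/threonine kinase gene, at 1792228, and its 294 sites were at 5.92% ± 11.6 and 2.88% ± 8.02. The run at 6069001-6072000 held the start of ANOS1, whose product anosmin is a secreted matrix protein, at 6071455, and its 241 sites were at 5.30% ± 9.89 and 3.84% ± 9.43. All 3 genes are annotated on the minus strand. The ANOS1 run had a PacBio depth of 80 calls per site, against 56 for PRKX and 38 for LOC114111205.

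Another 13 unmethylated runs, of 1 to 3 windows, lay at gene starts. One spanned the shared start of DHRSX and ZBED1 at 1264555 (4.48% on PacBio and 2.70% on ONT over 257 sites). Others were those of SLC25A6 at 761608 (3.39% on PacBio and 1.64% on ONT over 247 sites), of ASMTL at 786538 (3.81% and 2.95%, 224 sites), of P2RY8 at 845889 (3.55% and 2.57%, 97 sites) and of AKAP17A at 869149 (4.39% and 2.37%, 111 sites). Farther in were CD99 at 1335628 (4.79% and 2.13%, 161 sites), XG at 1372266 (5.29% and 3.28%, 56 sites), GYG2 at 1404595 with the lncRNA LOC121818159 (3.88% and 2.48%, 192 sites) and MXRA5 at 1608920 (3.54% and 2.46%, 222 sites). P2RY8 encodes a G protein-coupled receptor, CD99 and XG related cell-surface glycoproteins, GYG2 a glycogenin that primes glycogen synthesis, and MXRA5 a matrix protein. The run of ZNF160, a zinc-finger gene with its start at 2228867, was at 3.80% and 1.502% over 89 sites.

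Runs shared by genes in opposite directions occurred at 3 places. At 1448001-1450000 the starts of the arylsulfatase genes ARSH (1448785, plus strand) and ARSD (1450302, minus strand) lay in or just beside 148 sites at 3.297% on PacBio and 1.61% on ONT. At 4662001-4664000 the starts of PUDP, a pseudouridine phosphatase gene (4662781, minus strand), and of STS, the steroid sulfatase gene (4661991, plus strand), lay inside and just beside, respectively, a run of 208 sites at 6.17% and 3.17%. At 5379001-5380000 the starts of PNPLA4, a phospholipase-family gene (5379338, minus strand), and PRB3 (5379157, plus strand) lay in 80 sites at 3.29% and 1.69%. The ASMTL run also came within 1 kb of the start of PRB1 at 789103, but the sites within 500 bp of that start were themselves at 62.0% on PacBio and 63.4% on ONT.

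The remaining 4 unmethylated runs were single windows without a gene start within 1 kb. The window 752001-753000 in IL3RA, the gene of an interleukin receptor chain, had 89 sites at 6.24% on PacBio and 5.48% on ONT, 8608 bp from the nearest start inside the region. The window 799001-800000 in P2RY8 had 47 sites at 4.59% and 3.21%, 9898 bp from the nearest start. The window 1795001-1796000 overlapped no gene and lay 2773 bp upstream of PRKX, with 55 sites at 18.2% and 10.04%, the highest values of any unmethylated dense window. The window 6625001-6626000 also overlapped no gene, with 40 sites at 3.20% and 1.73%, 4220 bp upstream of the lncRNA LOC105605337.

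Seen from the genes, the PAR interior held 57 annotated starts, 36 of them of protein-coding genes at 34 distinct positions. Unmethylated dense runs lay within 1 kb of 21 of these 34 positions (61.8%, Wilson interval 45.04 to 76.1). Of 14 lncRNA genes 2 had such a run, LOC114111205 and LOC121818159, and of 4 tRNA genes, 2 snRNA genes and 1 snoRNA gene none did. Over the protein-coding genes with a run, the sites within 500 bp of the start had a median of 4.34% on PacBio and 1.89% on ONT.

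The genes were also counted by group, in lists drawn up with results of these data known, so the counts describe the lists and nothing more. An unmethylated run was present at the start of 9 of 10 genes of a list of broadly used genes, in which DHRSX and ZBED1 share 1 start and 1 run: SLC25A6, ASMTL (2 annotated copies), AKAP17A, DHRSX, ZBED1, CD99, PRKX, PUDP and TBL1X. The exception was the ASMTL copy that starts at 892332, where sites within 500 bp were at 90.1% ± 8.3 on PacBio and 74.2% ± 10.6 on ONT, against 3.11% and 1.89% at the copy at 786538. Genes outside the lists went both ways. SF3A2 and RIC1-RGP1, which share a start, HINT1 and PRELID1 had no such run, and the sites within 500 bp of their starts were at 88.9%, 88.3% and 92.1% on PacBio and at 73.5%, 75.9% and 80% on ONT, whereas ZNF160, PRB3 and PRB1 had one, in PRB1 beside a start that was itself methylated. A list of genes mostly of adhesion, matrix and signalling, in which GYG2 and PNPLA4 are metabolic enzymes, had a run at all 7 of its starts in the region (P2RY8, XG, GYG2, MXRA5, NLGN4X, ANOS1 and PNPLA4). Around XG the sites within 500 bp were at 16.1% ± 25.3 and 12.04% ± 20.6, the highest of these 7. The unmethylated stretch reached only 144 bp upstream of this start on PacBio and 285 bp on ONT.

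Of the 4 sulfatase genes, ARSD, ARSH and STS had an unmethylated run and ARSL did not. ARSL starts at 1472774, and the 40 sites within 500 bp of it were at 28.7% ± 17.8 on PacBio and 19.4% ± 8.2 on ONT. None of the 8 copies of the lipocalin genes OBP and BOS2D, which encode odorant-binding and allergen proteins of secretions, had a dense window at its start. Their start windows held 7 to 17 CpG sites, and sites within 500 bp of the starts were at 57.2 to 86.4% on PacBio and at 48.4 to 76.7% on ONT. The PRELID1 locus at 2674154 differed from all of these. Its start lay in a dense window of 57 sites that was methylated, at 90.2% on PacBio and 77.4% on ONT, and it was the only protein-coding start of the region that lay in a methylated dense window.

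The longest methylated run, 9 kb at 871001-880000, lay in the body of AKAP17A and began 1852 bp downstream of its start. Its 700 sites were at 93.4% ± 7.73 on PacBio and 85.4% ± 8.40 on ONT, and its 9 windows lay between 91.1 and 95.1% on PacBio and between 82.0 and 87.7% on ONT. This gene thus held an unmethylated dense window at its start and the longest methylated dense run in its body, with a single window of 31 sites at 41.7% and 35.4% between them. One site among the 138 of its unmethylated stretch was at 81.9% on PacBio and no site of it was above 27.7% on ONT.

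The next methylated runs were shorter, and 1 of the 4, in DHRSX and ZBED1, had a higher mean than the AKAP17A run while the others had lower means. The run at 1594001-1600000 in MXRA5 had 324 sites at 89.4% ± 11.6 on PacBio and 80.1% ± 11.1 on ONT. The run at 931001-936000 overlapped no annotated gene, and its 259 sites were at 87.2% ± 14.4 and 78.7% ± 12.96. The run at 1248001-1252000, in the overlapping bodies of DHRSX and ZBED1, had 330 sites at 94.6% ± 6.51 and 87.2% ± 7.55. The run at 790001-794000, at the end of P2RY8 and 898 bp upstream of the start of PRB1, had 256 sites at 82.5% ± 15.0 and 78.6% ± 14.1. In AKAP17A, MXRA5, P2RY8 and the DHRSX and ZBED1 pair, CpG-dense sequence was therefore found in both states at different places of 1 gene. This was not particular to them. Methylated dense runs also overlapped most other genes with an unmethylated run at their start, among them SLC25A6, CD99, XG, GYG2, PRKX, NLGN4X, PUDP, PNPLA4, ANOS1 and TBL1X, but not ZNF160.

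**Figure D3:**
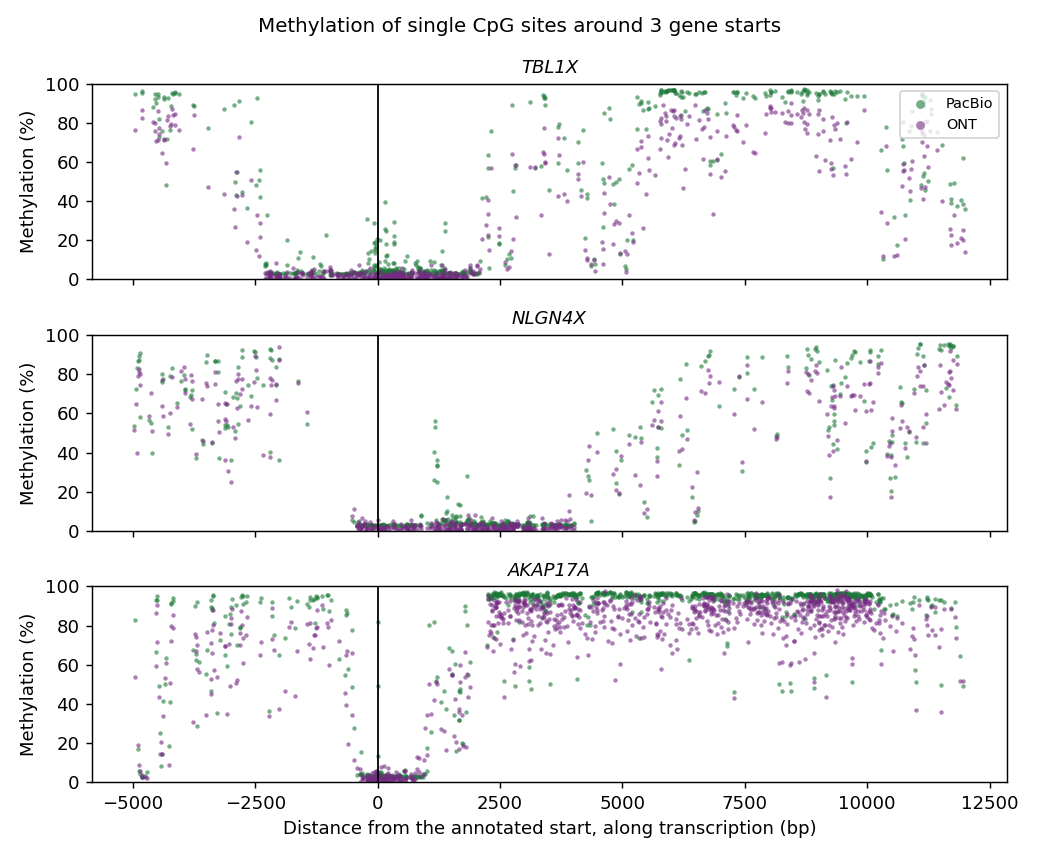
Methylation (y axis, %) of single CpG sites on PacBio and ONT against distance from the annotated starts of TBL1X, NLGN4X and AKAP17A (x axis, bp along transcription, start at 0). Sites around each start lie near 0%, the unmethylated stretch of NLGN4X extends mostly downstream, and the dense band of sites above about 2000 bp in AKAP17A is the 9-kb methylated run.

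Windows beside the unmethylated runs were mostly not fully methylated. Of the 43 distinct windows that adjoined these runs, 24 were intermediate, 13 methylated and 6 unmethylated, with a median of 45.4% on PacBio and 35.4% on ONT. Windows 1 step farther out were at 78.7% and 66.0%, and from there to the fifth window the medians stayed between 78.7 and 82.6% on PacBio and between 66.0 and 70.7% on ONT. Beside methylated runs 287 of 307 distinct adjoining windows were methylated and 1 was unmethylated, with medians over the 307 of 83.7% and 73.2%. No methylated dense window adjoined an unmethylated dense run, although 10 of the 225 lay within 3 kb of one.

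Measured on CpG sites rather than windows, most edges were narrower than 1 kb. An edge was measured outward from a run, on the running mean over 5 CpG sites, from the last site under 20% to the first at 50% or more. A running mean spreads a change over several sites, so a width is not that of single sites. The limit of 50% also lies below the median level farther out. All 44 edges were found on both platforms, with a median width of 179.5 bp on PacBio (quartiles 123 and 286, range 41 to 1402) and 272.5 bp on ONT (quartiles 194 and 402.5, range 62 to 1716). Widths were under 500 bp at 39 edges on PacBio and 37 on ONT. The 500 bp inside the edge held a median of 28 sites on PacBio and 27.5 on ONT, and the 500 bp outside 11 on each, with fewer sites outside at 41 and 40 of the 44 edges. Since the runs were chosen for their number of CpG sites, fewer sites outside them follows at least in part from that choice.

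The platforms placed the inner end of an edge at the same site in 21 of 44 cases and within 100 bp in 35, with a median distance of 5 bp. The largest distance was 1558 bp, upstream of GYG2, where the ONT stretch went on past sites that ended it on PacBio. The outer ends differed by a median of 85 bp. ONT gave the wider edge in 28 cases, PacBio in 8, and both the same in 8. With an outer limit of 40% in place of 50%, the median width was 165.5 bp on ONT and 144 bp on PacBio. Levels outside the runs were lower on ONT, with 66.0% against 78.7% on PacBio in the second window out. The part of this in the wider ONT edges was not tested.

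**Figure D4:**
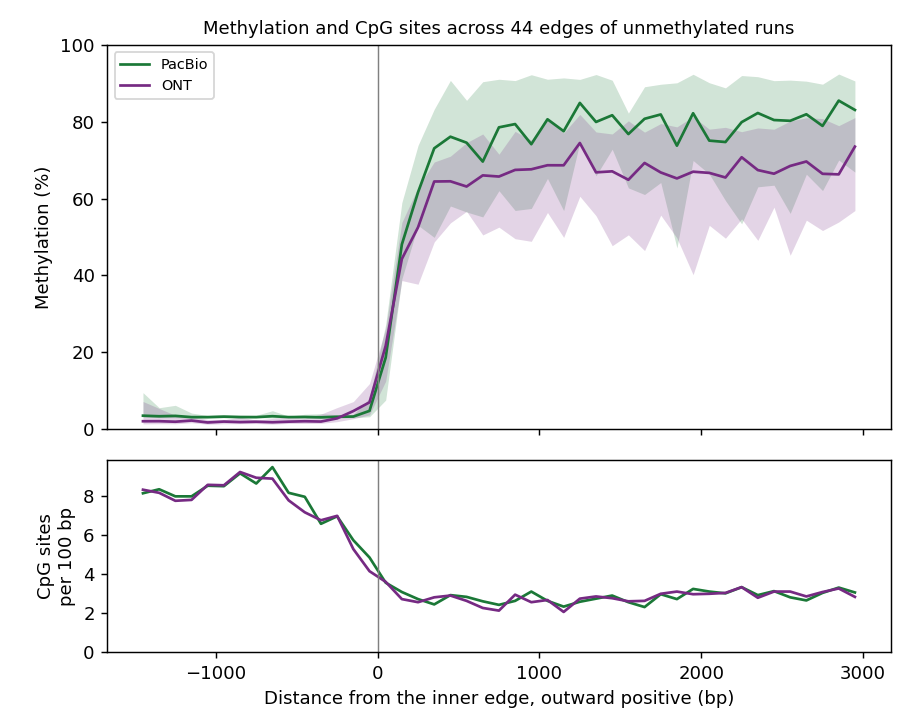
Median methylation (upper panel, %, with quartiles shaded) and mean CpG sites per 100 bp (lower panel) in 100-bp bins against distance from the inner end of the 44 edges (x axis, bp, outward positive), for PacBio and ONT. Medians stay under 4% well inside the runs and pass 60% on PacBio by about 200 bp outside. CpG sites are fewer outside, as the choice of dense windows favours.

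The edges of the 5 longest runs (ties in length by number of CpG sites) were 110 to 1402 bp wide on PacBio. On ONT they were 218 to 1716 bp wide. Those of NLGN4X were the widest of these on PacBio, and the downstream one was also the widest on ONT, with 1402 bp on PacBio and 1716 bp on ONT at the downstream side and 1158 bp on both platforms at the upstream side. The TBL1X edges were 124 bp on the left and 116 bp on the right on PacBio, but 1062 and 659 bp on ONT. For LOC114111205 they were 133 and 110 bp on PacBio against 323 and 428 bp on ONT. PRKX had 511 and 208 bp on PacBio and 1181 and 218 bp on ONT. ANOS1 had 307 bp on both platforms at its left edge, and 169 against 284 bp at its right. Edge widths of TBL1X, LOC114111205 and the left side of PRKX thus depended on the platform by more than 2 times, whereas those of NLGN4X and ANOS1 did not.

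The narrowest edge on both platforms was the upstream one of DHRSX and ZBED1, with 41 bp on PacBio and 62 bp on ONT, but the platforms placed it differently. On PacBio it began at 1265049 and on ONT at 1265193, PacBio depth went from 35 calls at 1265049 to 18 at 1265090, and PacBio methylation went from 59.5% at 1265090 back to 9.6% at 1265144. Among edges with the same inner site and width on both platforms, the left edge of the IL3RA window was the narrowest, at 70 bp. There the sites from outside to inside were at 87.0% on PacBio and 70.2% on ONT at position 752072, 30.8% and 16.4% at 752122, 23.1% and 17.6% at 752129, 4.0% and 8.55% at 752142, and 2.7% and 1.67% at 752204. The fall from the methylated to the unmethylated level thus took place within a few sites.

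Between its inner edge ends, an unmethylated stretch had a median length of 2150.5 bp on PacBio (range 827 to 4941) and 2397.5 bp on ONT (range 835 to 5098), over 22 stretches. Lengths differed by 200 bp or less between platforms in 19 of 22. Within the stretches methylation was 3.34 to 6.13% on PacBio and 1.47 to 8.02% on ONT, with a median of 77.3 CpG sites per kb. The TBL1X stretch was the longest on both platforms, with that of NLGN4X next at 4780 and 4495 bp, and that of ZNF160 the shortest. For all 18 runs with a nearby gene, a start lay inside the stretch.

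The starts were not central in these stretches. In the 15 stretches whose starts were all on 1 strand, the stretch reached a median of 638 bp upstream and 1519 bp downstream of the start on ONT, and 572 and 1519 bp on PacBio. The downstream side was longer in 12 of 15 on both platforms. NLGN4X had the largest difference in bp between its sides, with 477 bp upstream and 4017 bp downstream on ONT and 477 and 4302 bp on PacBio. The upstream side was longer on both platforms for SLC25A6 (1453 against 1022 bp) and ASMTL (2086 bp on both, against 1082 bp on ONT and 997 bp on PacBio). GYG2 changed with the platform, with 2193 bp upstream and 1325 bp downstream on ONT but 635 and 1323 bp on PacBio.

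**Figure D5:**
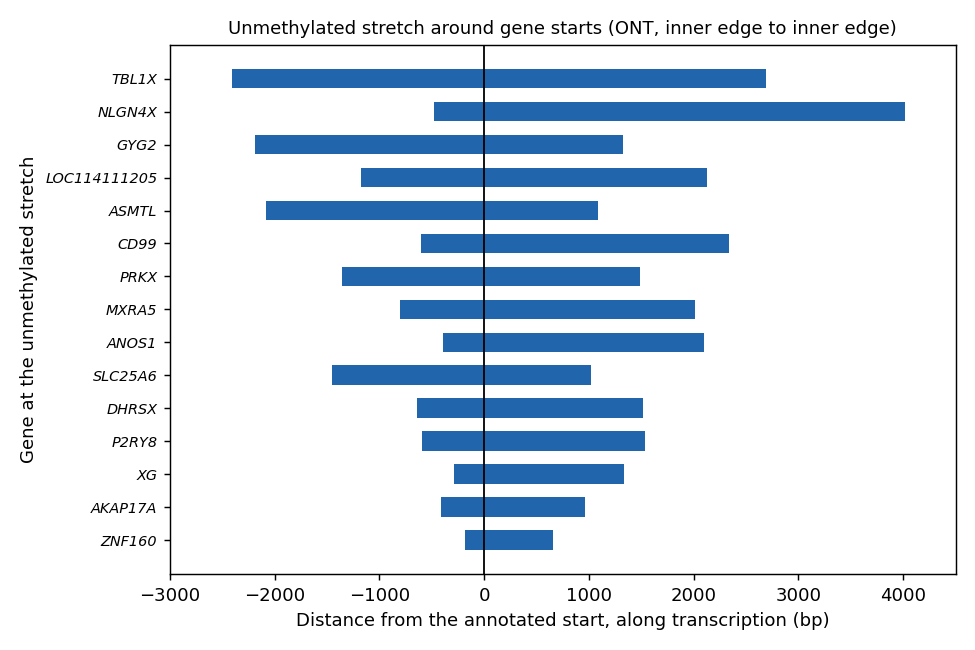
Extent of the unmethylated stretch on ONT (bars, from inner edge end to inner edge end) around the annotated start of 15 genes, ordered by length, with the start at 0 and transcription to the right (x axis, bp). The downstream side is longer for 12 of 15 genes, with GYG2, ASMTL and SLC25A6 the other way.

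The 19 intermediate dense windows varied in how methylation was spread within them. In 10 the first and the last 500 bp differed by 30 points or more on both platforms, and 6 of these adjoined an unmethylated run. The window 785001-786000 beside the ASMTL run was one, at 68.1% in its first and 6.47% in its last 500 bp on PacBio and at 51.9% and 7.84% on ONT. The other 9 did not meet this limit on both platforms, and 7 of them adjoined no unmethylated run either, but some came close, such as 1843001-1844000 at 3.61% and 40.1% on PacBio and 4.07% and 31.9% on ONT. In 4 windows most single sites were neither under 20% nor at 50% or more on both platforms, a count that may include sites where the platforms differed. Among them was 1309001-1310000, which also met the 30-point limit. In 824001-825000 in P2RY8, at 43.98% on PacBio and 37.7% on ONT, this held for 82.5% of sites. Its first and last 500 bp were at 41.0% and 48.0% on PacBio and at 32.7% and 44.5% on ONT. Edges inside intermediate windows were not searched for.

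Unmethylated windows with 10 to 39 sites were fewer and less free of methylation than the dense ones. Their 18 members had medians of 12.9% on PacBio and 10.5% on ONT, against 4.33% and 2.04% in dense windows, and held a median of 30.5 sites. A gene start lay within 1 kb of 4 of the 18, and 6 adjoined an unmethylated dense run. Depth was similar in the unmethylated windows of both classes, with medians of 47 PacBio and 194 ONT calls per site in dense windows and 51.5 and 181.5 in windows with 10 to 39 sites.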

How the data were processed

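For PacBio the authors called methylation on HiFi reads with Primrose, aligned them with pbmm2 and deposited, per CpG site, a modelled methylation percent from pb-CpG-tools (pileup model) and read counts. For ONT they used Dorado, Winnowmap and modbam2bed, and deposited counts of unmethylated (under 20%), methylated (over 80%) and between-threshold calls per strand, with a percent and a score, which was used only to check the columns. Here ONT strands were added up and methylated divided by methylated plus unmethylated calls. Sites needed 5 calls. Window values are means over sites. Gene positions and strands came from the NCBI annotation of the Y-chromosome listed with the study, because the RefSeq table at hand placed only 9 of the 57 interior genes on Y at the same start and end. Exons and the genome sequence were not used here. Named were genes starting within 1 kb of an unmethylated run, genes of the 5 longest methylated runs and of the 5 windows with most sites, while other protein-coding starts were counted, by group where one was set. PRELID1, SF3A2, RIC1-RGP1, HINT1, ARSL, the second ASMTL copy and IL3RA, and the windows and edges given as examples, were singled out after their values were seen. Windows, limits and gene groups were chosen with earlier results of these data known. The code (Python 3.11.15, NumPy 2.4.6, pandas 2.3.3, SciPy 1.17.1) was tested on simulated data. Wilson 95% intervals cover counting error only.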

Additional observations from a re-analysis of the deposited data

How the results depend on the processing

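With 1 animal there is no biological error, and depth limits single sites more than windows. Of 191 values recomputed under 20 alternatives, 172 kept their value within the set margin, 19 moved and 0 reversed. Shares had to stay within the Wilson interval, and run counts and depths within a set ratio. Medians had to stay within the SD between the 2 platform medians, and the platform difference within its SD between windows. Only the platform difference could be called reversed, so the 0 covers that result alone. Some values could not change, such as depth with the median over sites. With 30 sites for a dense window, 6.30% of dense windows were unmethylated and 86.5% methylated, 0.195% of the sparser windows were unmethylated, and there were 509 methylated runs. With 50 sites these were 29.4%, 67.5% and 62 runs, and intermediate windows had medians of 30.6% on PacBio and 27.6% on ONT. Windows shifted by 500 bp gave 0.192% unmethylated among windows with 10 to 39 sites and intermediate medians of 31.0% and 26.0%. The median over sites gave 0.751% and an ONT intermediate median of 42.0%. Limits of 10% and 30% for unmethylated gave 0.116% and 0.886% of windows with 10 to 39 sites. An outer limit of 40% gave a median edge width of 165.5 bp on ONT, and one of 144 bp on PacBio that stayed within the margin. Methylated runs with a start inside made up 1.19%, and with a protein-coding start within 1 kb 1.79%. Those with a start within 2 kb made up 7.74%, which stayed within the margin. Other limits and shifted windows count other members by construction, a lower outer limit ends an edge sooner, and for the median over sites the cause was not tested. No paired analysis was possible because the libraries are 2 readings of 1 animal and hold no groups to pair.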

Other observations

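Of the 18 unmethylated windows with 10 to 39 CpG sites, 11 neither adjoined an unmethylated dense run nor had a gene start within 1 kb. The lowest on PacBio was 5999001-6000000 in ANOS1, with 13 sites at 3.53% on PacBio and 7.97% on ONT, 71455 bp from the gene's start. The window 6819001-6820000 in TBL1X had 20 sites at 7.27% and 7.16%, 87381 bp downstream of its start. The window 1829001-1830000, 36773 bp from PRKX, had 36 sites at 12.7% and 8.96%.

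CpG sites at a regular spacing were searched for within each run, as the share of sites that had another site at the same distance of 10 to 300 bp. For each run the distance with the highest share was kept, and not every site of a run was counted in its share. This share was 40% or more in 3 of 168 methylated runs and in 0 of 22 unmethylated runs, where the highest was 29.8%. The 3 runs were the windows 6400001-6401000 (50% at 63 bp), 5318001-5319000 (47.9% at 28 bp) and 1780001-1781000 in PRKX (44.8% at 14 bp). The medians over runs were 15.7% for methylated and 18.8% for unmethylated runs. Methylated runs held a median of 46 sites and unmethylated runs 176.5, and no chance level is given. The shares of the 2 kinds therefore cannot be compared.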
